A study of Mus musculus with 2 samples.

Results

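Translation initiation factors bring the initiator tRNA, the small ribosomal subunit and the capped mRNA together, and release one another once the start codon is found. The group examined was every protein-coding gene whose symbol starts with Eif1, Eif2, Eif3, Eif4, Eif5 or Eif6, which gave 56 genes of the 21774 protein-coding genes on placed chromosomes of GRCm38. The symbols also take in regulators, namely the kinases that phosphorylate eIF2 and the proteins that hold the cap-binding protein eIF4E. The histone variant H2AZ, which takes the place of canonical H2A in some nucleosomes, was mapped by chromatin immunoprecipitation with sequencing (ChIP-seq) in neural progenitor cells from the brain of C57BL/6 embryos at embryonic day 13. The series held an H2AZ ChIP library and an input library, with 1 library per group, no genotype or treatment contrast and no replicates. The values were a single deposited list of peaks, of which 21546 were used, each with a position and a score. No comparison of ChIP with input was made, and no p-value is given.

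H2AZ is put into nucleosomes by remodelling complexes of the SWR1 type and commonly flanks the starts of active and poised genes. Initiation itself begins with a preinitiation complex, in which eIF1, eIF1A, eIF2 with the initiator tRNA, eIF3 and eIF5 join the small subunit. The eIF4 proteins then load this complex on the mRNA, and eIF2B recharges eIF2 with GTP after each round. Phosphorylation of eIF2 by its kinases blocks that exchange and lowers protein synthesis, and neural progenitors are among the cells in which this control is known to matter.

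An end peak is a peak that overlapped the 1 kb on either side of either end of a gene by at least 1 bp. The score is the value that the authors deposited with each peak. Its meaning is not stated there, so it served only to rank peaks of the same list. Scores in the list ran between 3.72 and 38.78 with a median of 11.93. Whether H2AZ was present in more of the cells or denser in each cell cannot be told apart in such a list. Of 10 genes that mark neural progenitors 7 had an end peak (70.0%, exact 95% interval 34.8 to 93.3%), against 55.4% of all protein-coding genes, a share within that interval. None was listed at Sox2, Sox1 or Prom1, although Sox1 held an interior peak of score 6.26. Of 3 neuronal markers 2 had one, and of 3 endothelial and 3 microglial markers 0 did, although Pecam1 held an interior peak of score 8.65. A peak is not a measure of expression, so these counts do not identify the cells, and their part in the results was not tested.

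Most initiation factor genes carried an H2AZ peak at an end. Of the 56 genes, 46 had an end peak (82.1%, exact 95% interval 69.6 to 91.1%), against 12060 of all 21774 protein-coding genes (55.4%). Intervals cover counting error only. The median score of the highest end peak was 17.7 over the 46 initiation factor genes with one and 17.1 over all protein-coding genes with one, and 25 of the 46 lay above 17.08, the all-gene median. With peaks at or above the list's median score alone, 38 of 56 initiation factor genes had an end peak (67.9%), against 44.4% of all genes. The initiation factor genes therefore held end peaks in a larger share than all genes, at scores close to the common level, and this was not tested beyond these counts.

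**Figure D1:**
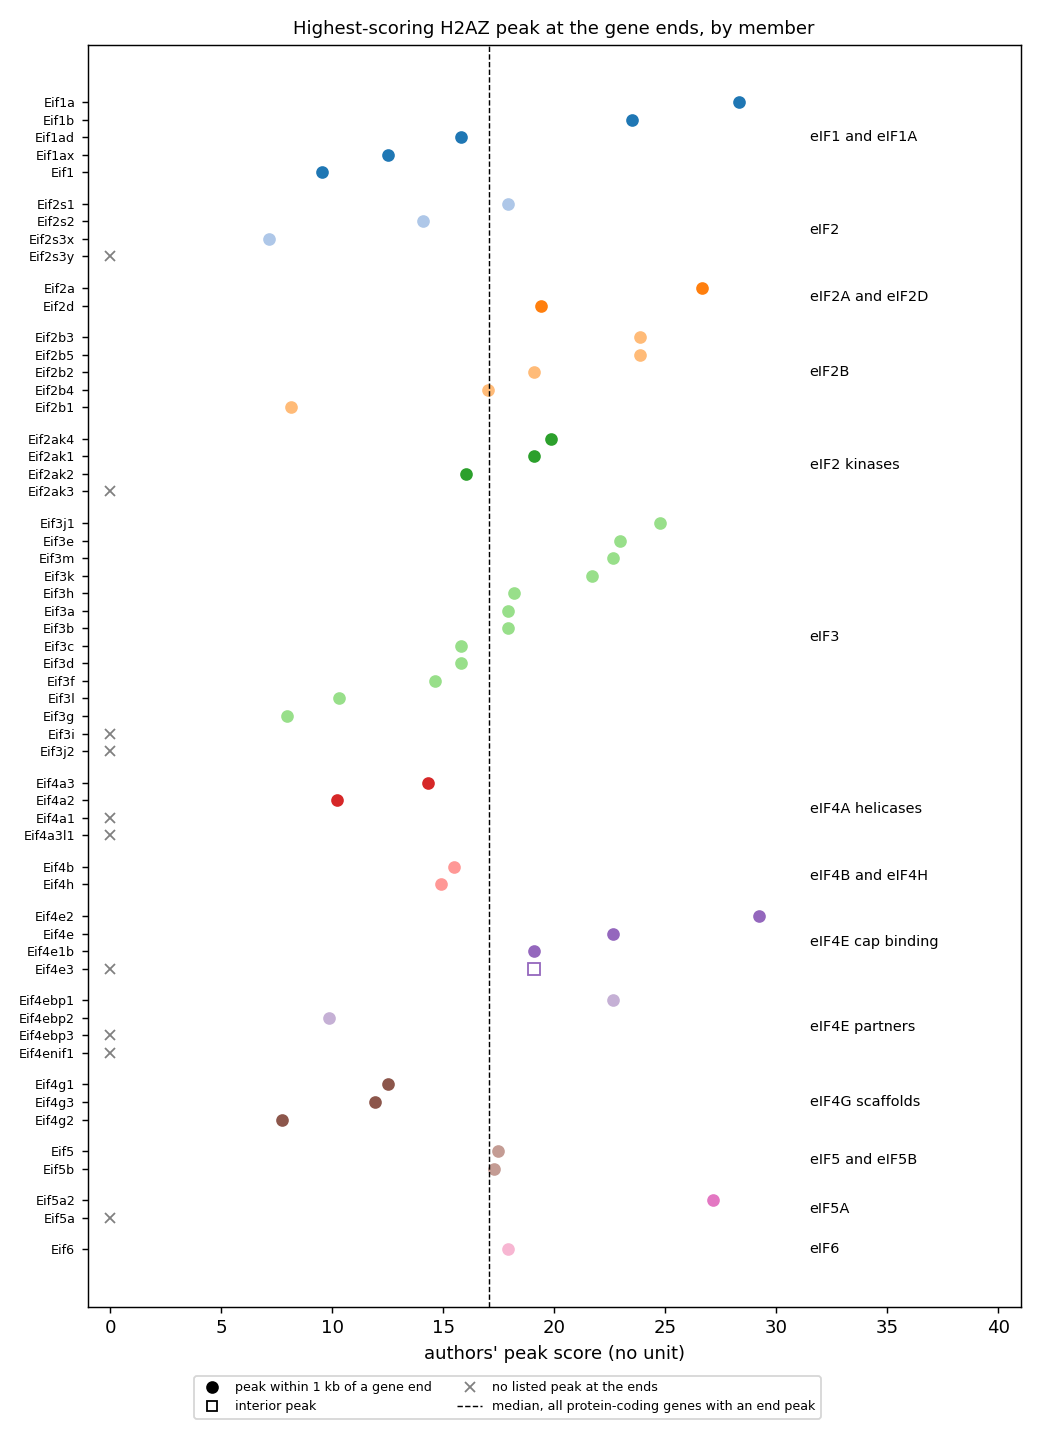
Each line is 1 gene and the horizontal axis is the authors' peak score, which has no unit. Filled points give the highest end peak, the open square an interior peak, crosses genes with no listed end peak, and the dashed line the median of 17.1 over all protein-coding genes with an end peak. Scores span 7.16 at Eif2s3x to 29.23 at Eif4e2, and the 10 crosses fall in the eIF2, eIF2 kinase, eIF3, eIF4A, eIF4E, eIF4E partner and eIF5A groups.

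Other gene families, taken by symbol, had shares in the same range. An end peak was listed at 14 of 15 genes whose symbols start with Eef1 or Eef2 (93.3%, interval 68.1 to 99.8%), 72 of 78 mitochondrial ribosomal protein genes (92.3%, 84.0 to 97.1%), 71 of 84 cytosolic ribosomal protein genes (84.5%, 75.0 to 91.5%) and 32 of 39 proteasome subunit genes (82.1%, 66.5 to 92.5%). The intervals of these shares overlapped that of the initiation factor genes. The Eef1 and Eef2 symbols belong to elongation factors and also to methyltransferases and a kinase that modify them, 8 of the 15 genes, of which 7 had an end peak (median score 17.6). Without these 8, a division made after the values were seen, an end peak was listed at 7 of 7 genes, with a median score of 13.25. Median scores were 17.7 for initiation factor genes, 18.2 for mitochondrial ribosomal protein genes, 16.8 for all genes with Eef1 or Eef2 symbols, 15.4 for proteasome genes and 11.93 for cytosolic ribosomal protein genes. No difference between these families was tested.

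**Figure D2:**
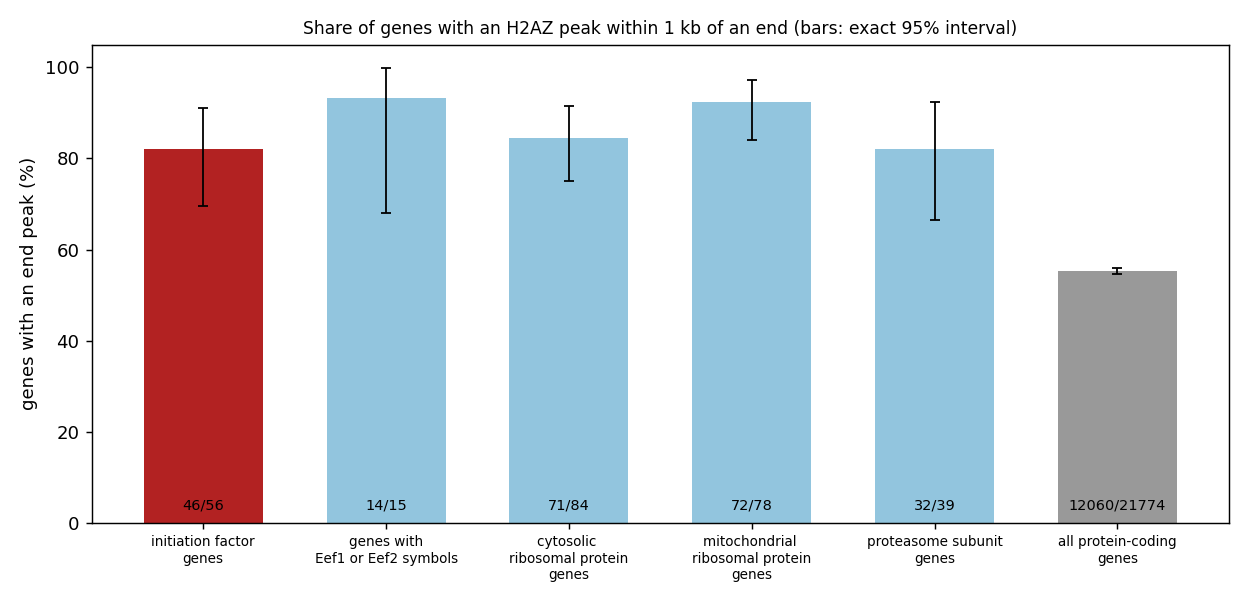
Bars give the percent of genes with an H2AZ peak within 1 kb of an end, lines the exact 95% interval, and the numbers in the bars the genes with a peak over the genes in the group. The initiation factor genes (82.1%) stand near the other families (82.1 to 93.3%), and all protein-coding genes stand at 55.4%.

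The peaks lay at the transcription start. RefSeq promoter entries, which give strand and start, were matched by gene ID for 44 of the 56 genes. Of these 44 genes, in 38 a listed start had a peak within 1 kb (86.4%, interval 72.6 to 94.8%), against 55.3% of the 17492 protein-coding genes with such an entry. At the far end of the gene 1 of the 44 had a peak, against 7.29% of all genes, and that gene was Eif4g1, which also had a start peak. The 7.29% lay within the exact 95% interval of the 1 of 44. Of the 44, 0 had a peak at the far end alone, against 1.64% of all genes. For a share that low, 44 genes are too few to tell 0 from it. Neither far-end count therefore sets the initiation factor genes apart from all genes. Start peaks had a median score of 16.5 in initiation factor genes and 17.3 in all genes, the reverse order of the end-peak medians. Peaks covered the start itself in 37 of 38 initiation factor genes (97.4%) and in 97.4% of all genes with a start peak. The peak midpoint had a median position of -64 bp relative to the start (quartiles -193 and 24 bp) for initiation factor genes and 37 bp (-112 and 201 bp) for all genes, negative values being upstream. The median start peak was 2182 bp wide in initiation factor genes and 2218 bp in all genes, and among the 48 end peaks of initiation factor genes wider ones had higher scores (Spearman correlation 0.51 across peaks of 1 library, a description).

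**Figure D3:**
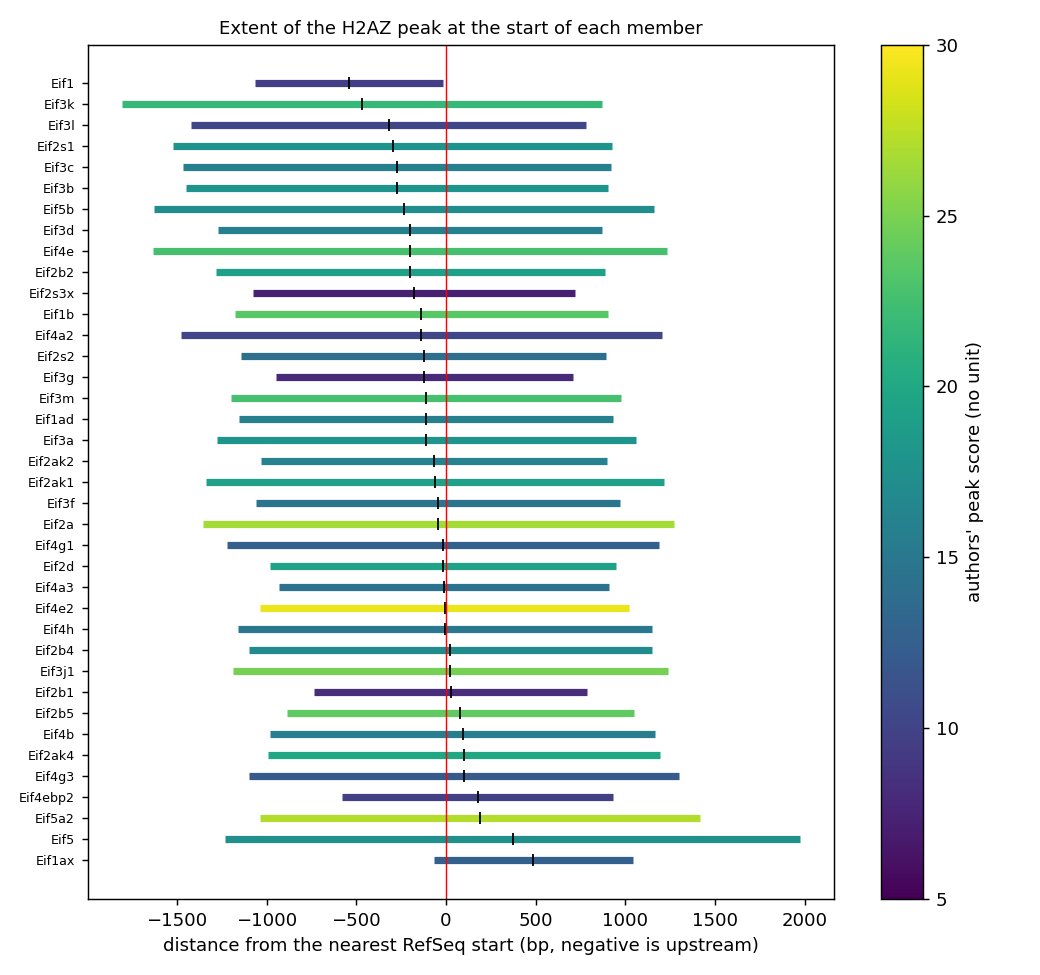
Horizontal bars show how far the highest start peak of each of 38 genes reached from the nearest RefSeq start, in bp with upstream negative, the black tick marks its midpoint and the colour gives the authors' score. All bars except that of Eif1 cross the start, and midpoints lie between -542 bp at Eif1 and 488 bp at Eif1ax.

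The preinitiation complex genes ran over most of the range of scores. All 5 genes of the eIF1 and eIF1A group had an end peak. The factors eIF1 and eIF1A keep the scanning ribosome open until it meets a start codon. Eif1a, the autosomal eIF1A gene, scored 28.34 (2414 bp wide, rank 367 of the list), at an end that Tmed7 shares. Its X-linked counterpart Eif1ax scored 12.53, with a peak of 1109 bp that ran between -66 and 1042 bp relative to the start. Eif1ad, which encodes a protein with an eIF1A-type domain, scored 15.81 over an end shared with Banf1. Eif1a and Eif1b thus stood above the other genes of this group.

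Eif1b and Eif1, paralogues that encode near-identical forms of eIF1, differed in the peak. The Eif1b peak scored 23.51 and covered its start (chromosome 9, 120491431 to 120493507, 2077 bp, rank 1785). The Eif1 peak scored 9.55, was 1050 bp wide and ended 17 bp before the start (chromosome 11, 100318883 to 100319932, rank 13363), so it lay wholly upstream. Each is a single value from 1 library. The promoters of the pair are shown because both are rich in CpG while their peaks differ, and the lines give the 250 bases before the RefSeq start, 5′ to 3′ on the gene's strand. Capitals mark matches, on either strand, to the motifs listed further on. The Eif1b window is chr9:120492356-120492605 on the plus strand of GRCm38.p6 and the Eif1 window chr11:100319699-100319948 on the plus strand.
Eif1b: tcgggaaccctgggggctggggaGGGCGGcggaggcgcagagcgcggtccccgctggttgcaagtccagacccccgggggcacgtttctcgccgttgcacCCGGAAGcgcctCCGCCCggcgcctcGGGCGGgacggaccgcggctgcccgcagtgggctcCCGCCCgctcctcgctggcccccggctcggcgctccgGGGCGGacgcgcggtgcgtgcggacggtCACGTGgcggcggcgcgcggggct
Eif1: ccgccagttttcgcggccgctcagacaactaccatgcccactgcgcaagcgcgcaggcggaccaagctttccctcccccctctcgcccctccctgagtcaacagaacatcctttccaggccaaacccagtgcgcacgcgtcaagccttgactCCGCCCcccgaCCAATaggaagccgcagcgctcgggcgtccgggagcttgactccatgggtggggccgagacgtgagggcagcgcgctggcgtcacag
The Eif1b window held 42 CpG, a GC content of 80.4% and a CpG observed to expected ratio of 1.04, and the Eif1 window 24 CpG, 66.8% and 0.89. Capitals fall on 5 matches to GGGCGG in Eif1b and 1 in Eif1, on CCGGAAG and CACGTG in Eif1b and on CCAAT in Eif1.

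Of the 4 genes for eIF2, which carries the initiator tRNA, 3 had an end peak. Eif2s1, the alpha subunit that the eIF2 kinases phosphorylate, scored 17.9 (chromosome 12, 78860552 to 78863000, rank 5359) and shared the peak with Atp6v1d. Eif2s2, the beta subunit, scored 14.08. Eif2s3x, the X-linked gamma subunit, scored 7.16, the lowest of the 46 genes (X chromosome, 94211934 to 94213725, rank 17521). Its Y-linked counterpart Eif2s3y, needed for mouse spermatogenesis, had no listed peak, and only 2 peaks of the list lay on Y. Of protein-coding genes on X, 40.2% had an end peak, against 55.4% of all protein-coding genes. Eif2a and Eif2d, which encode proteins that can deliver initiator tRNA outside the eIF2 route, scored 26.65 (chromosome 3, 58524464 to 58527091, rank 680, shared with Serp1) and 19.39.

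All 5 subunit genes of eIF2B, the exchange factor that recharges eIF2 and whose human genes are mutated in leukoencephalopathy with vanishing white matter, had an end peak. The catalytic subunit genes had the same score, 23.86 at Eif2b3 (gamma; chromosome 4, 117017411 to 117020458, 3048 bp) and at Eif2b5 (epsilon; chromosome 16, 20497931 to 20499863, 1933 bp), with rank 1541. The regulatory subunit genes were lower, with 19.09 at Eif2b2 (beta), 17.0 at Eif2b4 (delta) and 8.17 at Eif2b1 (alpha; chromosome 5, 124578342 to 124579866, rank 15676). The peaks of Eif2b1 and Eif2b4 were also at ends of Gtf2h3 and Snx17, whose starts lay 17 and 165 bp away on the opposite strand.

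The 4 eIF2 kinases each answer a different stress. Eif2ak4 (GCN2, amino acid shortage) scored 19.87 (chromosome 2, 118387625 to 118389811, rank 3955), Eif2ak1 (HRI, haem shortage) 19.09 and Eif2ak2 (PKR, double-stranded RNA) 16.01 (chromosome 17, 78881675 to 78883605, rank 7089). Eif2ak3 (PERK, unfolded protein in the endoplasmic reticulum) had no end peak, and the nearest listed peak, of score 8.95, stood 3468 bp upstream of the gene (chromosome 6, 70839621 to 70841016). The 3 kinases with a peak thus lay close together in score.

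The eIF3 complex, the scaffold that joins mRNA, small subunit and the other factors, was the largest group, and 12 of its 14 genes had an end peak with a median score of 17.9. The highest was Eif3j1, a loosely bound subunit, at 24.76 (chromosome 2, 122027393 to 122029816, rank 1213). Eif3e followed at 22.97 (chromosome 15, 43281721 to 43283801, rank 1959), then Eif3m at 22.67 (chromosome 2, 105016051 to 105018228, rank 2108) and Eif3k at 21.71. Eif3e, Eif3m, Eif3k, Eif3h (18.2), Eif3a (17.9), Eif3c (15.81), Eif3f (14.62) and Eif3l (10.3) encode the core of related PCI and MPN domain subunits, and all 8 had a peak. Of the subunits around eIF3b, Eif3b scored 17.9 and Eif3g 7.95, the lowest of the complex (chromosome 9, 20897881 to 20899540, rank 16156). Eif3d, which can bind the mRNA cap itself, scored 15.81. Scores within this single complex thus spanned 7.95 to 24.76.

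Eif3i and Eif3j2 were the eIF3 genes with no listed peak. Eif3i (chromosome 4, 129591974 to 129600648) lay in a stretch of 3.85 Mb between neighbouring peaks that held 53 other protein-coding genes and no listed peak. The median distance between neighbouring peaks was 39.1 kb and 1.62% of such stretches exceeded 1 Mb. The absence at Eif3i is therefore that of a whole gene-rich region in this list, and whether reads or peaks of that region are missing was not tested. Eif3j2 is a short gene of 2419 bp on chromosome 18 named as a second copy of eIF3j, and its nearest listed peak stood 30.8 kb away. Whether reads could be placed uniquely at such copies was not examined.

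Among the eIF4 genes, the cap-binding gene Eif4e2 had the highest score of the 56 genes, 29.23 (chromosome 1, 87212905 to 87214961, 2057 bp, rank 257), with its midpoint -6 bp from the nearest of 3 listed starts. Eif4e2 encodes 4EHP, a cap-binding protein that represses translation of the mRNAs it holds. Eif4e, the cap-binding protein of the initiation complex eIF4F, scored 22.63 with a peak of 2866 bp (chromosome 3, 138525635 to 138528500, rank 2245). Eif4e1b, an oocyte form, scored 19.09 through a peak 26 bp outside the gene that was also at an end of Tspan17 (chromosome 13, 54788485 to 54790636, rank 4433). Eif4e3 had no end peak and held the only interior peak among the 56 genes, of score 19.09, 26193 bp from its nearer end by the midpoint (chromosome 6, 99665782 to 99667578, rank 4433). No RefSeq promoter entry was matched for Eif4e3, so whether this peak lies at a transcription start inside the gene cannot be told. Interior peaks were listed for 13.8% of all protein-coding genes, whose lengths were not matched.

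The Eif4e peak covered both listed starts, 138526191 and 138527268, with its midpoint -201 bp from the inner one. The 250 bases before each start are shown, since they differ in CpG content and in E-boxes, and those before the first listed start of Eif4e2 are shown as the highest-scoring gene. The windows are chr3:138525941-138526190 and chr3:138527018-138527267 for Eif4e and chr1:87213661-87213910 for Eif4e2, all on the plus strand of GRCm38.p6.
Eif4e, outer start: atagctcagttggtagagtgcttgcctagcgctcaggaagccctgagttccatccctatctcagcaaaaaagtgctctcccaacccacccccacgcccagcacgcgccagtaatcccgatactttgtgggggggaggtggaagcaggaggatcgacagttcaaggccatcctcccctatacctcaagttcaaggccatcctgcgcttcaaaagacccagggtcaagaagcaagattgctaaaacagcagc
Eif4e, inner start: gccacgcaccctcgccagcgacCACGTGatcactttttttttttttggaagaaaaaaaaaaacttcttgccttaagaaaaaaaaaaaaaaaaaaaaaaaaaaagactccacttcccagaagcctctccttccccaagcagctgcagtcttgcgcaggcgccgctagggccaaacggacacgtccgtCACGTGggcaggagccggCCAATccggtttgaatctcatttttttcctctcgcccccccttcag
Eif4e2: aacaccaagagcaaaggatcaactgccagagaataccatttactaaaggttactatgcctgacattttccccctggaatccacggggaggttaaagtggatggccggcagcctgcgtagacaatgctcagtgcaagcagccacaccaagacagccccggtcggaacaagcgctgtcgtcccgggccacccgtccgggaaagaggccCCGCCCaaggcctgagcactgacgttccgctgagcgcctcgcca
Before the outer start of Eif4e the CpG ratio was 0.38, with no match to any motif searched. Before the inner start the ratio was 1.00, with E-boxes (CACGTG) at -228 and -64 and CCAAT at -46, positions being those of the first base relative to the start. The Eif4e2 window held 1 match to GGGCGG, as its reverse complement, at -44, and a CpG ratio of 0.70.

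The eIF4A helicases, which unwind mRNA ahead of the ribosome, scored below the all-gene median of 17.1 or had no end peak. Eif4a3, the helicase of the exon junction complex, scored 14.32 (chromosome 11, 119299134 to 119300975, rank 8476) and Eif4a2 10.21 with a wide peak of 2683 bp (chromosome 16, 23105990 to 23108672, rank 12595). Eif4a1 (chromosome 11, 69666936 to 69672423), the form most associated with dividing cells, had no end peak. Its nearest listed peak, of score 10.74, stood 3411 bp beyond the far end of the gene, and the peaks on its sides stood 17.5 kb apart. Eif4a3l1, named as an Eif4a3-like gene, had none within 87.7 kb. The helper genes Eif4b and Eif4h scored 15.51 and 14.91.

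The promoter of Eif4a1 is shown because it had no listed peak although its CpG ratio lay near the median of the initiation factor promoters. The window is chr11:69672424-69672673, read on the minus strand of GRCm38.p6.
Eif4a1: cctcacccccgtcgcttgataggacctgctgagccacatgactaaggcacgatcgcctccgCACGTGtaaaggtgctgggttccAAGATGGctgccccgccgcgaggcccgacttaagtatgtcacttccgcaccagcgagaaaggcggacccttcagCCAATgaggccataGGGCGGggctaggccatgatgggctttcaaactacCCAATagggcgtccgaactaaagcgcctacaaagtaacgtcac
It held 18 CpG, a CpG ratio of 0.84 and a GC content of 58.8%, close to the medians of 0.85 and 59.0% over the 44 initiation factor promoters. Capitals fall on CACGTG at -189, AAGATGG at -166, CCAAT at -92 and -43 and GGGCGG at -78. A score below the criterion of the deposited list would also leave no peak, so the absence says only that none was listed.

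The eIF4G scaffolds all had end peaks of modest score. Eif4g1 scored 12.53 at its start (chromosome 16, 20671506 to 20673913, rank 10099) and had a second peak of 10.14 at its far end, which was also at the start of Fam131a. Eif4g3 scored 11.95. The Eif4g3 peak began 579 bp inside the outermost end of the gene and covered both listed starts. Eif4g2 (DAP5), which lacks the eIF4E-binding part, scored 7.76 through a peak 57 bp outside the gene (chromosome 7, 111083087 to 111084265, rank 16281). All 3 scaffolds therefore lay below the all-gene median of 17.1.

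Partners of eIF4E were split. Eif4ebp1, a repressor released from eIF4E by mTOR signalling, scored 22.67 with a peak of 2977 bp (chromosome 8, 27259332 to 27262308, rank 2108), and Eif4ebp2, the form most studied in brain, scored 9.84 (chromosome 10, 61451735 to 61453246, rank 12977). Eif4ebp3 had no end peak, with a listed peak of 10.55 at a distance of 2974 bp. Eif4enif1, which carries eIF4E into the nucleus, had none within 20.6 kb. Taking the kinases and these partners as regulators, 5 of 8 had an end peak (62.5%, interval 24.5 to 91.5%), against 41 of 48 factor genes (85.4%, 72.2 to 93.9%), and the intervals overlapped. The 55.4% of all protein-coding genes also lay within the interval of the regulators.

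The 1 kb limit decided few genes. The gene nearest inside it was Eif4g3, 579 bp from the end, and the nearest outside were Eif4ebp3 (2974 bp), Eif4a1 (3411 bp) and Eif2ak3 (3468 bp).

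Genes of the late steps mostly had a peak near the common level. Eif5, which triggers GTP hydrolysis by eIF2, scored 17.45 with a peak of 3205 bp, the widest at a start in the group. Eif5b, which joins the ribosomal subunits, scored 17.3 and shared the peak with Txndc9. Eif6, which keeps the large subunit apart, had a peak at each end, of 17.92 and 15.81, each also at an end of another gene.

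The paralogues Eif5a2 and Eif5a, which encode the hypusine-bearing factor eIF5A that also acts in elongation, differed in being listed. Eif5a2 scored 27.14 (chromosome 3, 28780243 to 28782695, rank 566). Eif5a had no listed peak, but it lay in a stretch of 1.55 Mb on chromosome 11 without peaks, which held 60 other protein-coding genes, and the pair is not compared further. The promoter of Eif5a2, at chr3:28781027-28781276 on the plus strand of GRCm38.p6, is shown as that of the gene with the third-highest score of the group.
Eif5a2: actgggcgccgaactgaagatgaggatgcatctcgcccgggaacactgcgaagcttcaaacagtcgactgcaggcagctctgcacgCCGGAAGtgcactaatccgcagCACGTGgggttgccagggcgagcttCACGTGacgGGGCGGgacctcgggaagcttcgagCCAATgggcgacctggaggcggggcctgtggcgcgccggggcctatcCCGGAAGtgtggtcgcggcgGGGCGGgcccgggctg
It held CCGGAAG at -164 and -36, CACGTG at -142 and -117, GGGCGG at -108 and -16 and CCAAT at -83, with a CpG ratio of 0.95.

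**Figure D4:**
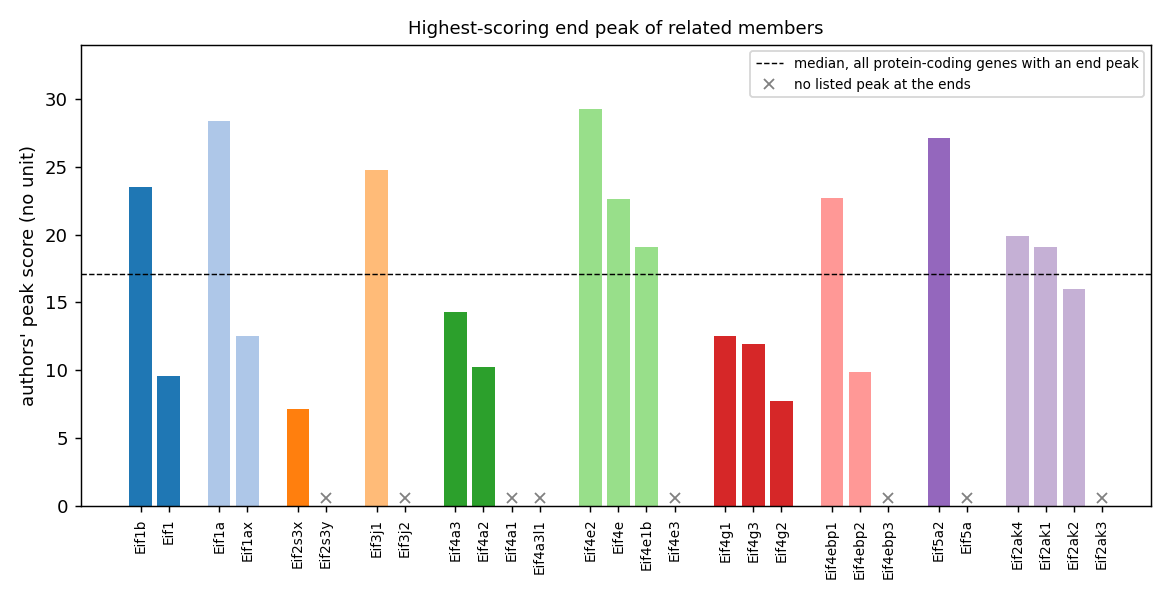
Bars give the authors' score, which has no unit, of the highest end peak of genes with related names, coloured by group, crosses mark genes with no listed end peak and the dashed line is the median of 17.1 over all protein-coding genes with an end peak. Within groups the scores differ, as at Eif1b (23.51) and Eif1 (9.55) or Eif1a (28.34) and Eif1ax (12.53). The Eif1a peak was also at an end of Tmed7.

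Some end peaks of initiation factor genes were also at a neighbouring gene. Of the 48 end peaks, 13 were also at an end of another protein-coding gene (27.1%), against 16.6% of all end peaks of protein-coding genes. These shares are not alike. A peak at ends of several genes can be reached through any of them, so it enters a set picked by gene more readily. The share over all end peaks counts each peak once. The difference therefore cannot be read as an excess at initiation factor genes. No interval is given for the 27.1%, and the difference was not tested. At 8 genes (Eif1ad, Eif2a, Eif2ak2, Eif2b1, Eif2b4, Eif2s1, Eif3k and Eif5b) the neighbour had a start at the peak on the opposite strand, 17 to 802 bp from that of the initiation factor gene. Such a peak cannot be given to either gene, and whether shared starts bear on the score was not tested. Opposite-strand starts at a peak were not counted over all genes, so these 8 genes have no share beside them.

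Promoters of initiation factor genes were rich in CpG. Over the 250 bases before the outermost listed start, the median CpG observed to expected ratio was 0.85 in the 44 initiation factor genes and 0.54 in all 17492 protein-coding genes with an entry. Among genes with a start peak the medians were 0.89 (38 initiation factor genes) and 0.72 (9672 genes), and among genes without one 0.81 (6 initiation factor genes) and 0.21 (7820 genes). Within the 38 genes the ratio and the score had a Spearman correlation of -0.25, against 0.20 over all genes with a start peak, both descriptions across genes of 1 library. Eif5a had 6 listed starts, and the ratio of 0.76 used here is that of the outermost one, while the others ran between 0.67 and 1.27. Eif4e entered the correlation with the ratio of its outer start, 0.38. The midpoint of its peak lay nearest the inner start, where the ratio was 1.00.

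**Figure D5:**
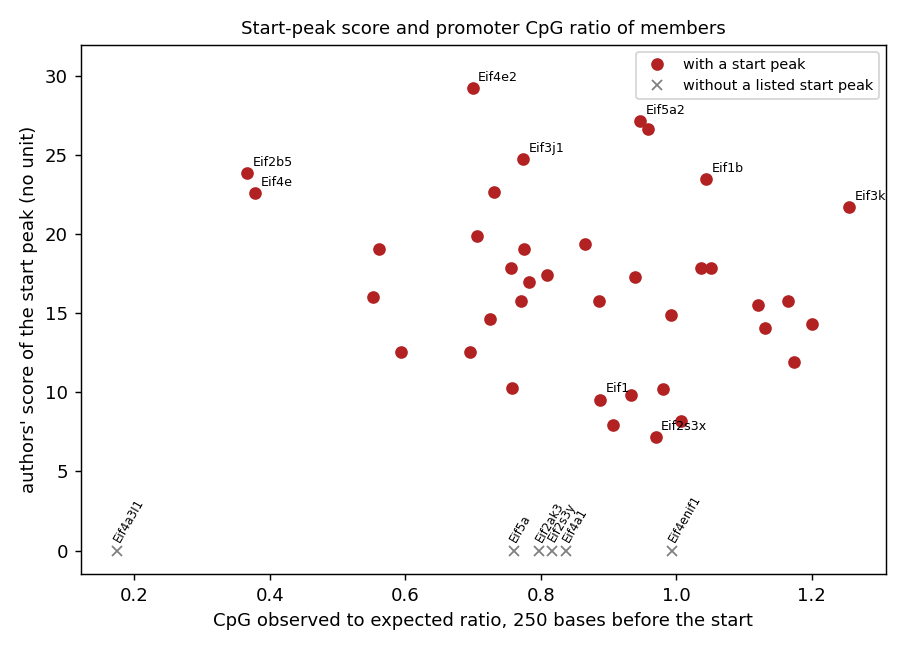
The horizontal axis is the CpG observed to expected ratio in the 250 bases before the outermost RefSeq start and the vertical axis the authors' score of the start peak, which has no unit. Red points are the 38 initiation factor genes with a start peak and crosses at 0 the 6 without one, of which only Eif4a3l1 (0.17) lies below all others in ratio.

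Several short promoter motifs were counted on both strands of the same windows, none of them contained in another. The Sp-type box GGGCGG was in 31 of 44 initiation factor promoters (70.5%), against 42.7% of all promoters and 61.3% of all promoters with a start peak. The ETS-type motif CCGGAAG was in 10 (22.7%), against 9.15 and 13.3%, and the E-box CACGTG in 7 (15.9%), against 6.65 and 8.59%. The E-box genes by the outermost start were Eif1b, Eif3f, Eif3k, Eif4a1, Eif4g1, Eif4h and Eif5a2. Eif4e is not counted, since its E-boxes lay before the inner start. CCAAT was in 13 (29.5%), against 36.5 and 36.8%, AAGATGG in 2 (4.55%), against 4.08 and 3.98%, and the palindromic NRF1 motif in 1, Eif3k (2.27%), against 1.06 and 1.61%. TGACGTCA, TGATGCAA and the palindromic ZBTB33 motif were in 0 of 44, against 1.98, 0.83 and 0.60% of all promoters. No intervals are given for these motif shares, and no difference was tested. For the rarest motifs, 44 promoters are too few to tell 0 from the share of all promoters. A match is a string of letters and not a bound site.

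Of 26 other genes of the initiation pathway 20 had an end peak (76.9%, interval 56.4 to 91.0%), against 55.4% of all protein-coding genes. Their median score was 17.3, against 17.1 over all protein-coding genes with an end peak. The helicase gene Dhx29 scored 29.53, Gigyf2, a partner of 4EHP, 28.04, and Denr and Paip1, which act in reinitiation and in binding of the poly(A)-binding protein, 24.46 each. Ppp1r15a, which directs removal of the phosphate from eIF2, scored 22.08, Rptor of the mTOR complex 19.99 and Atf4, the transcription factor of the stress response to eIF2 phosphorylation, 14.29. The lowest were Mcts1 (6.56), the partner of Denr, and Paip2 (8.35). Mtor, Mknk2, Mcts2 and Rps6kb2 had no listed peak, and Larp1 and Pdcd4 held interior peaks of 19.99 and 23.56 in place of an end peak.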

How the data were processed

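H2AZ ChIP and input DNA from neural progenitor cells were sequenced, with 1 library per group. The deposited list gives for each peak a chromosome, start, end, name and score, and has no header. Scores are printed as deposited, as the authors' values. The other deposited columns used are the start, counted from 0, and the end, and starts are printed here counted from 1. Peak names carry the name MACS, per the deposited file, and no source used here gives its settings or control. The submitters' processing notes name CASAVA 1.4, Bowtie2 2, FastQC and mm9. Positions were read as GRCm38, because 51.6% of peaks lay at protein-coding gene ends of that build and 8.32% did after a shift of 1000000 bp. The list holds 21592 peaks, numbered up to 32646 (66.1%), so some called peaks are not in it. From the list, 46 peaks numbered after the last Y peak were left out. Depth is unknown.

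Gene ends came from the RefSeq table of GRCm38.p6, and starts and sequences from RefSeq promoters, where 1843 of 1843 overlapping windows on opposite strands were equal as reverse complements. Starts were available for 44 of the 56 genes (12 not matched). A peak was interior if it touched the gene and neither end window. Intervals are exact (Clopper-Pearson, 95%). Members, lists and comparisons were chosen with earlier results of these data known. Named in full were the genes with the highest end peaks, those without an end peak that have an interior peak, and the highest and lowest of each complex of 3 or more genes, and every other gene is given by its score. The planned identity of paralogous proteins was not analysed here, and a planned list of markers is not reported here. Windows, overlap rules, score limits and gene subsets were varied. The overlap code was tested on simulated peaks. Python 3.11.15, numpy 2.4.6, pandas 2.3.3, scipy 1.17.1 and matplotlib 3.10.9 were used.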

Additional observations from a re-analysis of the deposited data

How the results depend on the processing

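The share of initiation factor genes with an end peak was 82.1% and stayed within its interval with windows of 500 bp, 2 kb and 5 kb, with the midpoint or at least 50% of the peak in the window, without regulators and with all listed peaks (78.6 to 87.5%). The share of all protein-coding genes ran between 50.8 and 60.8% over these settings. With peaks at or above the list's median score alone the share of initiation factor genes was 67.9%, against 44.4% of all genes. This fell below the interval of the main setting, 69.6 to 91.1%. The share at the annotated start was then 70.5%, against 44.6% (86.4% against 55.3% with all peaks), and also fell below its interval, 72.6 to 94.8%. The genes that lost their end peak there were Eif1, Eif2b1, Eif2s3x, Eif3g, Eif3l, Eif4a2, Eif4ebp2 and Eif4g2. With the 5 kb window Eif2ak3, Eif4a1 and Eif4ebp3 gained one, and Eif4g3 lost it at 500 bp. The next subsets were chosen after seeing the data. Among genes with no other gene end within 2 kb the share was 88.9% (24 of 27), against 47.5% of all such genes. Without X and Y it was 83.0%, against 56.8%. Without genes in stretches over 1 Mb between peaks, which lack peaks by construction, it was 85.2%, against 62.8%. The median score ran between 17.4 and 18.1 over the settings tried, against 17.0 to 18.8 over all genes with an end peak. With the higher-scoring peaks alone it was 18.1, below the 18.8 of all genes. The number of genes with an interior peak was 1 of 56 in each setting (1.79%), against 6.09 to 13.8% of all genes. Of the end peaks, 27.1% were shared with a protein-coding neighbour, against 16.6% of all end peaks. That share was 25.0% against 14.8% with 500 bp, 29.2% against 19.9% with 2 kb and 41.7% against 29.3% with all annotated neighbours. In each setting the share over all end peaks counts each peak once, while the peaks of initiation factor genes were reached through genes. No excess can therefore be read from these pairs. Of 98 counts by complex 2 moved by more than 1.5 times, those of the eIF4A helicases and eIF4E partners, each to 1 gene with the higher-scoring peaks. No paired analysis was possible because each group has 1 library and no test was made. Leaving out a replicate was not possible for the same reason. Depth is unknown, so an absent peak may lie below the criterion of the list.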
